A study of Mus musculus with 24 samples.

Results

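Splicing factor genes of 6 families were followed in mouse embryonic stem (ES) cells that lacked Mettl3 or Mettl14, the subunits of the enzyme that places N6-methyladenosine (m6A) on RNA. The rule that chose the genes reads the symbol and no measured value, and takes those whose name begins with Srsf, Hnrnp, Sf3a, Sf3b, Snrp, U2af or Prpf followed by a number or letters. Of 69 symbols that matched, Snrpn was set aside by the rule and Snrpert is a pseudogene, which left 67 genes of the 47937 gene identifiers in the tables. The 67 genes were 11 of the Srsf family, 20 Hnrnp, 11 Snrp, 9 Sf3a or Sf3b (called Sf3 here), 3 U2af and 13 Prpf. All 67 passed the filter on low counts in both the RNA-seq and the MeRIP-seq table, so every count below is over all members.

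The spliceosome removes introns from pre-mRNA, and most of it is built from small nuclear ribonucleoproteins (snRNPs), each a small nuclear RNA with its own proteins. Snrp genes encode the Sm proteins, which form a ring around the small nuclear RNA of the U1, U2, U4 and U5 particles, and proteins particular to U1 or U2. The SF3A and SF3B complexes are parts of the U2 snRNP and hold it at the branch point, and the U2AF proteins recognise the polypyrimidine tract and the 3′ splice site next to it. Prpf genes encode proteins of the U4/U6.U5 tri-snRNP, among them Prpf8 at the catalytic centre, and a set of other splicing proteins that share the name only. SR proteins (Srsf) mostly promote the use of nearby splice sites, while hnRNP proteins coat nascent transcripts and often repress them. Several SR and hnRNP genes are known to control their own RNA through alternative exons that lead to decay of the transcript.

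The ES cells were of a 129/Sv by C57Bl6 background and grew on gelatin in medium with LIF and serum replacement. There were 4 lines. WT26 is a wild-type line and the control of Mettl14 KO, a single clone made from WT26 that is homozygous for a small deletion in Mettl14 leading to a truncated protein, and that had also received Mettl3 guides but kept Mettl3 intact. RBC is the control of Mettl3 KO, a single clone that comes from another study, and both carry BirA-V5 and Cre-ERT2 at Rosa26. Each line had 2 RNA-seq libraries of ribosome-depleted RNA, 2 m6A immunoprecipitation (IP) libraries and 2 matching input libraries (MeRIP-seq), for 8 and 16 libraries. According to the methods the RNA was nuclear, while the labels speak of total RNA. The replicates of a knockout come from 1 clone, so p-values measure the spread between cultures or preparations of that clone and not between clones.

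Total counts were 11321459 to 13743181 per RNA-seq library and 9394163 to 28441282 per MeRIP-seq library. Replicates of RBC differed more from each other in RNA-seq than those of the other lines, with a chi-square per degree of freedom over genes of 39.8 against 2.95 to 6.31, and the counts below are given without either RBC library where it matters. In Mettl14 KO the RNA of Mettl14 fell by 0.31 on the log2 scale (adjusted p = 0.00609), and in Mettl3 KO the RNA of Mettl3 had a log2 fold change of -0.16 (adjusted p = 0.0588). Counts over a whole gene do not test a deletion of a few bases, so these values check the labels little. All 10 ES cell markers, Pou5f1, Sox2 and Nanog among them, were above 100 normalized counts in every library, but their summed level was 26295 to 26416 in Mettl14 KO against 36406 to 37317 in WT26, and 19788 to 20528 in Mettl3 KO against 32578 to 32852 in RBC. The summed level of 7 primitive endoderm markers was 309.8 to 324 in Mettl14 KO, 99.8 to 107 in WT26, 164 to 176 in RBC and 121 to 147 in Mettl3 KO, with Foxa2 under 10 normalized counts in all of them. The 7 fibroblast markers summed to 27.3 to 38.1 in Mettl14 KO, 82.3 to 84.8 in WT26, 103.5 to 116 in RBC and 45.2 to 62.4 in Mettl3 KO. Of these, 6 were under 10 normalized counts in both libraries of WT26 and of Mettl14 KO, 5 in RBC and 4 in Mettl3 KO, Thy1 not among them. Dcn had 0 reads in all 8 libraries. The 7 neural markers summed to 837 to 853 in Mettl14 KO, 939 to 957 in WT26, 1447 to 1456 in RBC and 1632 to 1683 in Mettl3 KO. Dcx and Neurog2 were under 10 normalized counts in all 4 lines. The part of these differences in the results on splicing factor genes was not tested. In bulk libraries, fewer cells of a type and less RNA per cell cannot be told apart.

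Some members share sequence with other genes, which the counting could have split. Annotated pseudogenes with a stretch of 100 bases or more at least 95% identical to the member were found for 21 members, most of them for Hnrnpa3 (26) and Hnrnpa1 (11). Of the Sm genes, Snrpg had 3, Snrpd2 2, and Snrpe, Snrpd1 and Snrpf 1 each. U2af1 had 3 and U2af2 1. In 10 members at least 10% of the exon bases overlap an exon of another gene on either strand, with 65.9% in Snrpf, 65.6% in U2af1l4, 43.0% in Srsf4 and 15.6% in Srsf2. The strand setting of the counting is not given in the sources used here, so values of these members are uncertain. Counts in the RNA-seq comparisons and in IP over input are therefore also given for the 39 members with neither kind of sharing.

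The m6A writer prefers an adenosine in the sequence GGACT, and the antibody that pulls down m6A is read out per gene here, so the annotated transcripts of members at both ends of the IP range were searched for these letters on the transcript's own strand. GGACT was found at a median of 0.66 per kb in the members, using for each gene the transcript with the longest coding part, and of 1.02 per kb in 21901 protein-coding genes, and at least once in 88.1% and 86.7% of them. Shown are 25-base windows from Sf3b5 and Snrpd2, which had the highest IP over input, and Srsf3, which was among the lowest. Coordinates are GRCm38, all on the plus strand, and the capitals mark GGACT.
Sf3b5 site 1 (chr10:13006167-13006191, in the single exon, 5′ of the coding part): tgatggccaaGGACTctaatgctct
Sf3b5 site 2 (chr10:13008269-13008293, in the same exon, 5′ of the coding part): caaactctttGGACTacttgttcca
Snrpd2 site 1 (chr7:19152504-19152528, exon 3 of 3, coding): aaggagatgtGGACTgaggttccca
Snrpd2 site 2 (chr7:19152592-19152616, exon 3 of 3, coding): tcctgcgcggGGACTcggtcatcgt
Snrpd2 site 3 (chr7:19152843-19152867, exon 3 of 3, 3′ UTR): cagtttaattGGACTtttgtgtatt
Srsf3 site 1 (chr17:29043161-29043185, exon 6 of 6, 3′ UTR): accctgtattGGACTgtaataaaca
These are all the GGACT matches of the 3 transcripts, which are 3841, 1420 and 2618 bases long. Prpf8, which was lowest in IP over input in WT26 and RBC, held 7 matches in 7442 bases, all of them in coding sequence across its 42 exons. A match to these letters is a description of the sequence and does not show a modified base.

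Splicing factor genes were among the well-expressed genes of these cells, with a median of 1380 normalized counts per gene over the RNA-seq libraries against 181 over the 17021 genes tested. Per kb of exon, Prpf8 was the highest member in WT26, at 2180.1 and 2128 normalized counts in the 2 libraries, followed by Srsf5 at 1811 and 1837, Hnrnph1 at 1827 and 1805 and Srsf2 at 1700.4 and 1835. Srsf5, Hnrnph1 and Srsf2 lay within each other's spread, so their order in WT26 is not set. At the other end stood Srsf12, an SR protein gene of low abundance, with a mean of 3.66 per kb, and U2af1l4, a paralog of U2af1, with 9.71.

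In Mettl14 KO more splicing factor genes fell than rose. Against WT26, 36 of 67 fell, 10 rose and 21 did not pass at an adjusted p of 0.05 (edgeR quasi-likelihood test over all genes), where 27.0% of all tested genes fell and 25.5% rose. The changes were small, with a median log2 fold change of -0.16 over the members and of 0.00 over all genes, a range of -0.81 to 0.67, and no member past a log2 fold change of 1, which 14.5% of all genes passed. Both knockout libraries lay below both WT26 libraries for 41 members and above for 16, while this was so for 38.7% and 37.8% of all genes. Because the members are highly expressed, the same shares were taken over the 8224 genes that had 200 or more normalized counts on average, where 36.6% fell and 26.3% rose with a median of -0.06. That floor does not match the members' abundance, since their median was 1380 normalized counts. Of the 39 members without shared sequence, 20 fell and 7 rose.

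In Mettl3 KO the shift towards lower RNA was larger. Against RBC, 43 of 67 members fell, 6 rose and 18 did not pass, beside 28.1% and 25.2% of all genes. Their median log2 fold change was -0.29, their range -0.99 to 0.69, and again none passed a log2 fold change of 1, which 13.6% of all genes did. Both knockout libraries lay below both RBC libraries for 47 members and above for 12, against 38.3% and 37.4% of all genes. Among the 8224 genes above the same floor of 200 normalized counts, 38.6% fell and 27.9% rose, with a median of -0.06. Without RBC replicate 1 the counts were 40 fallen and 5 risen, and without RBC replicate 2 they were 41 and 4. Scaling by library size alone, which moved the median of all genes by 0.15, gave 31 fallen and 13 risen (20.2% and 35.6% of all genes), with the members' median 0.28 below that of all genes as with the size factors. Of the 39 members without shared sequence, 23 fell and 4 rose in the main fit.

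**Figure D1:**
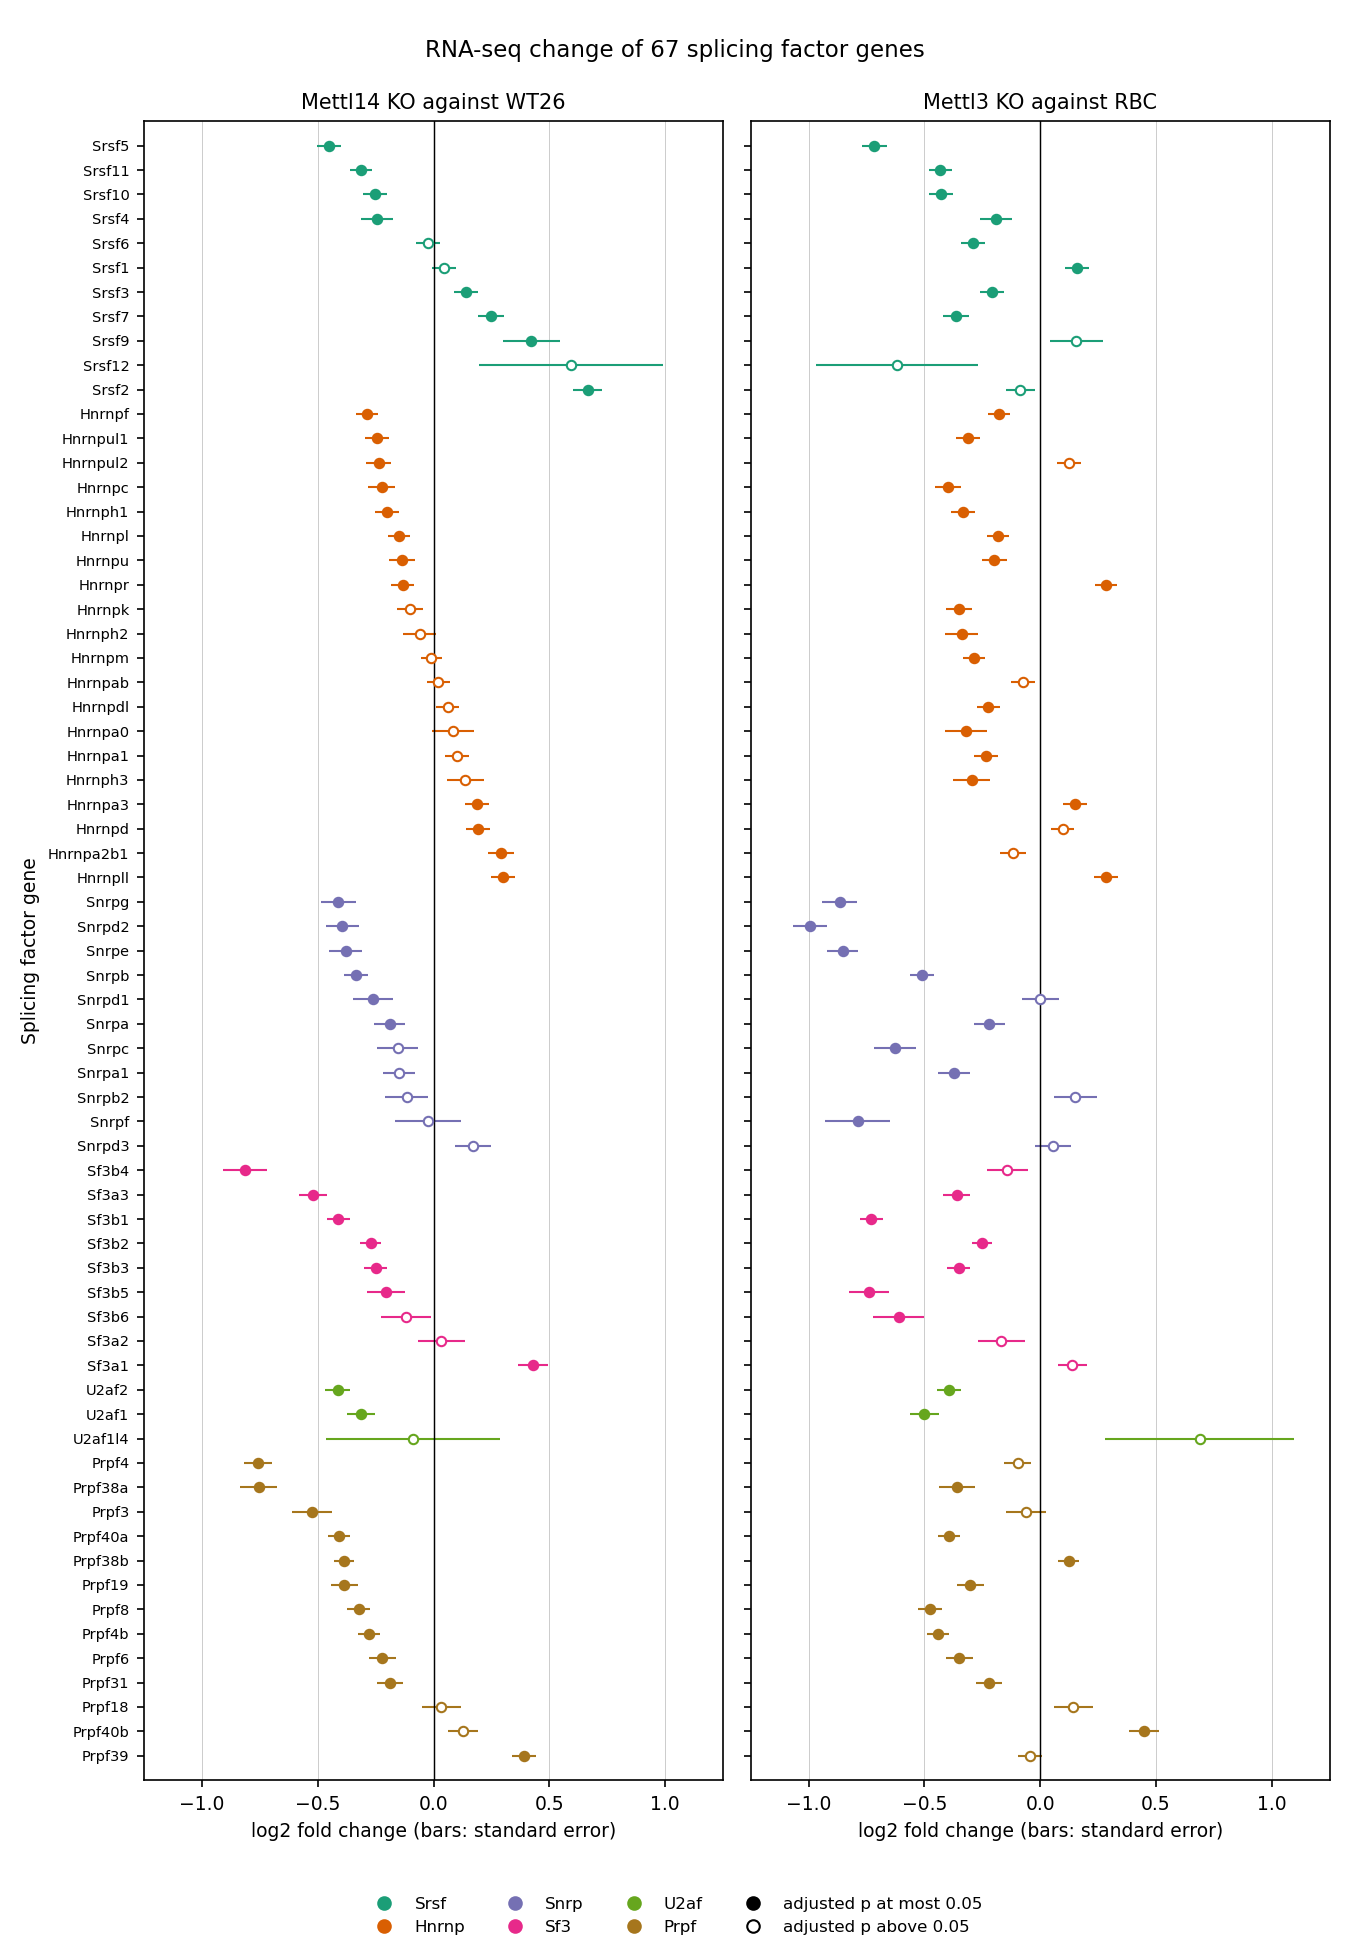
RNA-seq log2 fold change of each of the 67 splicing factor genes by family, in Mettl14 KO against WT26 and in Mettl3 KO against RBC, with filled points for an adjusted p of 0.05 or less. Most filled points lie below 0 in both knockouts (36 of 46 and 43 of 49), and no point passes 1 in either direction.

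Of the genes for Sm proteins, 4 (Snrpb, Snrpd2, Snrpe and Snrpg) fell in both knockouts. Of the 7 genes for the Sm ring, 5 fell and none rose in Mettl14 KO as in Mettl3 KO, at a median of -0.34 on the log2 scale in the former and of -0.79 in the latter. Of these genes only Snrpb and Snrpd3 are among the 39 members without shared sequence. Snrpb fell in both knockouts and Snrpd3 passed in neither. Snrpd2, which encodes SmD2, had 918 and 877 normalized counts in WT26 and 1156 and 1224 in RBC, with 696 and 670.2 in Mettl14 KO and with 555 and 644 in Mettl3 KO. It was thus lowest in Mettl3 KO and highest in its own control, with no overlap between a knockout and its control. Its log2 fold change was -0.39 (SE 0.072, adjusted p = 0.00017) in Mettl14 KO and -0.99 (SE 0.072, adjusted p = 2.5e-09) in Mettl3 KO, the largest fall of any member. Snrpd2 has 2 pseudogenes that share a near-identical stretch with it, and among the 39 members without shared sequence the lowest value in Mettl3 KO was -0.74. Snrpg, for SmG, went from 674 and 703 in WT26 to 528 and 507 in Mettl14 KO, and from 915 and 916 in RBC to 467 and 539.9 in Mettl3 KO. The log2 fold changes were -0.41 (SE 0.076, adjusted p = 0.00019) and -0.87 (SE 0.075, adjusted p = 2.5e-08).

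Snrpe, for SmE and chosen here after its values were seen, differed most of the Sm genes between the control lines, with 929.6 and 1003 normalized counts in WT26 and 1722 and 1843.5 in RBC. In Mettl14 KO it had 716 and 769 and in Mettl3 KO 921 and 1057, so that Mettl3 KO stood close to WT26. Its log2 fold change was -0.38 (adjusted p = 0.00024) and -0.85 (adjusted p = 8.7e-09) against the knockouts' own controls, and 0.89 (SE 0.068, adjusted p = 1.3e-08) in RBC over WT26. Snrpb, for SmB, fell in both knockouts, by 0.34 and 0.51 on the log2 scale. Snrpd1 (SmD1) fell in Mettl14 KO by 0.26 (adjusted p = 0.017, but 0.111 with DESeq2) and stood at 0.00 in Mettl3 KO (SE 0.081), while Snrpf (SmF), most of whose exon bases overlap another gene, had -0.02 in Mettl14 KO (SE 0.14) and fell by 0.79 in Mettl3 KO (adjusted p = 0.00013). Snrpd3, for SmD3, passed in neither, at 405 and 402 in WT26 and 407 and 391 in RBC, with 472 and 436 in Mettl14 KO and with 421 and 408 in Mettl3 KO. Of the proteins particular to one particle, Snrpa of U1 fell by 0.19 (adjusted p = 0.0254) and 0.22 (adjusted p = 0.0116), at 856 and 816 in WT26 and 797 and 773 in RBC, with 752 and 716 in Mettl14 KO and with 704 and 643 in Mettl3 KO. Snrpc of U1 fell in Mettl3 KO by 0.63 and had -0.16 in Mettl14 KO (difference -0.47, adjusted p = 0.00536), and Snrpa1 of U2 fell in Mettl3 KO by 0.37 and had -0.15 in Mettl14 KO (difference -0.22, adjusted p = 0.0764). Snrpb2 of U2 passed in neither knockout, at -0.12 in Mettl14 KO and 0.15 in Mettl3 KO.

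Of the 6 Sf3b genes, which the rule took by name and which need not cover the whole SF3B complex, 4 fell in both knockouts. These were Sf3b1, Sf3b2, Sf3b3 and Sf3b5, and the largest fall of the 6 was in a different gene in each knockout. Taken singly, 5 fell in each knockout, with a median of -0.26 (Mettl14 KO) and of -0.48 (Mettl3 KO). Sf3b4 had 332 and 326 normalized counts in WT26 and 181 and 193 in Mettl14 KO, the largest fall in that line (-0.81, SE 0.095, adjusted p = 1.3e-06), and 352 and 334 in RBC against 326 and 294 in Mettl3 KO (-0.14, SE 0.089, adjusted p = 0.19). Sf3b5 showed the reverse order. It had 532 and 527 in WT26 and 434 and 485 in Mettl14 KO (-0.20, SE 0.082, adjusted p = 0.0444), and 483 and 527 in RBC against 290.45 and 316 in Mettl3 KO (-0.74, SE 0.086, adjusted p = 1.2e-06). Both differences between the knockouts passed their own test, at 0.67 (adjusted p = 0.00042) for Sf3b4 and -0.54 (adjusted p = 0.00143) for Sf3b5. Sf3b1, the largest subunit and a gene often mutated in blood cancers, was chosen after its values were seen and fell by 0.41 and 0.73, from 10603 and 10568 to 7938 and 7990.3 and from 14273 and 14552 to 8512 and 8881. Sf3b3 fell from 7435 and 7179 to 6037 and 6253 in Mettl14 KO (-0.25, adjusted p = 0.00035) and from 6908 and 6883 to 5420.2 and 5391 in Mettl3 KO (-0.35, adjusted p = 9.9e-06). The SF3A complex did not move together, since Sf3a3 fell in both, by 0.52 and 0.36, Sf3a2 passed in neither, and Sf3a1 rose in Mettl14 KO. Sf3a1 had 1243 and 1321 in WT26 and 1694 and 1755 in Mettl14 KO (0.43, SE 0.063, adjusted p = 1.9e-05), and 1584 and 1349.6 in RBC against 1591 and 1636 in Mettl3 KO (0.14, adjusted p = 0.0718).

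Both subunits of the U2AF dimer fell in both knockouts. U2af1, which reads the 3′ splice site, had 1363 and 1379 normalized counts in WT26 and 1123 and 1085 in Mettl14 KO (-0.31, SE 0.060, adjusted p = 0.00031), and 1325 and 1275 in RBC against 862 and 979 in Mettl3 KO (-0.50, SE 0.062, adjusted p = 2.2e-06). U2af2, which binds the polypyrimidine tract, went from 1689 and 1754 to 1297 and 1286 (-0.41, SE 0.053, adjusted p = 4.1e-06) and from 1677 and 1848 to 1358 and 1328 (-0.39, SE 0.053, adjusted p = 6.6e-06). For U2af1l4, at 9.86 to 20.4 normalized counts per library, log2 fold changes of -0.09 (SE 0.38) and 0.69 (SE 0.41) did not pass, and a change of that size was not detectable at this depth.

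The 5 Prpf genes of the tri-snRNP all fell in Mettl14 KO, with a median of -0.32, and 3 of them in Mettl3 KO, with a median of -0.22. Prpf8 fell in both, from 16266 and 15874 normalized counts in WT26 to 13016 and 12669 in Mettl14 KO (-0.32, SE 0.051, adjusted p = 3.5e-05) and from 18698 and 18611 in RBC to 13214 and 13630.0 in Mettl3 KO (-0.48, SE 0.051, adjusted p = 3.8e-07). Prpf4, a partner of Prpf3 in the U4/U6 particle, showed one of the widest gaps between the knockouts. It had 1074 and 1053 in WT26 and 977 and 925 in RBC, with 627 and 632 in Mettl14 KO and with 885 and 892 in Mettl3 KO, that is a log2 fold change of -0.76 (SE 0.060, adjusted p = 1e-08) in the former and -0.10 (SE 0.059, adjusted p = 0.179), with a difference of 0.66 (SE 0.084, adjusted p = 6.2e-06). Prpf3 had -0.52 and -0.06, with a difference of 0.46 (adjusted p = 0.00509). The other 2 members, Prpf6 and Prpf31, fell in both knockouts, by 0.22 and 0.35 and by 0.19 and 0.22. Prpf31 had 1176 and 1254 in WT26 and 1348 and 1367 in RBC, with 1093 and 1039 in Mettl14 KO and with 1136 and 1195 in Mettl3 KO.

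Of the 8 remaining Prpf genes, 5 fell and 1 rose in Mettl14 KO, and 4 fell and 2 rose in Mettl3 KO. Prpf4b, a kinase of spliceosomal proteins, went from 2852 and 2844 in WT26 to 2334 and 2358 in Mettl14 KO (-0.28, adjusted p = 7.7e-05) and from 2865 and 2981 in RBC to 2077 and 2235 in Mettl3 KO (-0.44, adjusted p = 4.2e-07). Prpf38b changed in opposite directions, from 2609 and 2598 to 1951 and 2031 (-0.39, adjusted p = 1.2e-06) and from 2646 and 2640.05 to 2824 and 2933 (0.12, adjusted p = 0.0263). Prpf39, a U1-associated protein, rose in Mettl14 KO from 1149 and 1178 to 1557 and 1495 (0.39, adjusted p = 5.5e-06), whereas Mettl3 KO, at 1249 and 1305, overlapped RBC at 1336 and 1298. Prpf40b rose in Mettl3 KO from 693 and 699 to 965 and 935 (0.45, adjusted p = 1.3e-05), with 737 and 809.5 in WT26 and 845 and 843 in Mettl14 KO.

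Among the SR protein genes the knockouts parted. In Mettl14 KO 4 of 11 rose and 4 fell, with a median of 0.04, and in Mettl3 KO 1 rose and 7 fell, with a median of -0.29. Srsf2, known to control its own RNA, rose in Mettl14 KO from 5029.8 and 5427 normalized counts to 8279.7 and 8314 (0.67, SE 0.063, adjusted p = 8.5e-08), the largest rise of any member. In Mettl3 KO it had 4089 and 4758 against 4695 and 4691 in RBC, values that overlap. Srsf7 rose from 4827 and 4789 to 5863 and 5552 in Mettl14 KO (0.25, SE 0.055, adjusted p = 0.00111) and fell from 5503 and 5899 to 4247 and 4617 in Mettl3 KO (-0.36, SE 0.055, adjusted p = 2.5e-05). Srsf3 did the same with smaller changes, from 4721 and 4697 to 5107 and 5266 (0.14, adjusted p = 0.0333) and from 5013 and 5468 to 4438 and 4634 (-0.21, adjusted p = 0.00274). Srsf5 fell in both, from 7221 and 7328 to 5395 and 5234 (-0.45, SE 0.053, adjusted p = 1.2e-06) and from 6535 and 6688 to 3851 and 4199 (-0.72, SE 0.053, adjusted p = 3.5e-09). Srsf1, the founding SR protein, was the single riser in Mettl3 KO, from 6434 and 6787 to 7103 and 7658 (0.16, adjusted p = 0.0185). Srsf12 counts were too low for a call in either knockout, at 22.0 and 13.6 in Mettl14 KO, 14.5 and 8.59 in WT26, 14.8 and 17.1 in Mettl3 KO and 27.6 and 21.7 in RBC.

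Of the 20 hnRNP genes, 8 fell and 4 rose in Mettl14 KO, and 13 fell and 3 rose in Mettl3 KO, all by less than 0.40 on the log2 scale. Hnrnpc, which covers uridine-rich stretches of nascent RNA, went from 2159 and 2019.5 normalized counts to 1761 and 1819.8 in Mettl14 KO (-0.22, adjusted p = 0.0033) and from 2961 and 2640.05 to 2047 and 2207 in Mettl3 KO (-0.40, adjusted p = 1.1e-05). Hnrnpf, a G-run binding protein, had the largest fall of the family in Mettl14 KO, from 1878 and 1939 to 1592 and 1535 (-0.29, adjusted p = 5.3e-05). Hnrnpll rose in both, from 1217 and 1199 to 1529 and 1445 (0.30, adjusted p = 0.0001) and from 1301 and 1251 to 1531 and 1576 (0.28, adjusted p = 0.00015). The only other member that rose in both was Hnrnpa3, by 0.19 and 0.15, a gene that shares near-identical stretches with 26 pseudogenes. Hnrnpr moved in opposite directions, from 2535 and 2350.2 to 2246 and 2208 (-0.13, adjusted p = 0.0282) and from 2640.5 and 2693 to 3323 and 3177 (0.29, adjusted p = 7.2e-05). Hnrnpa0 passed in Mettl3 KO, falling from 794 and 711 to 543.5 and 662 (-0.32, SE 0.090, adjusted p = 0.00594), whereas Mettl14 KO had 716 and 748 against 649 and 735 in WT26 (0.08, SE 0.089). Hnrnpd, known to bind AU-rich elements, rose in Mettl14 KO from 1918 and 1776 to 2152 and 2067 (0.19, adjusted p = 0.00485), while Mettl3 KO had 2158 and 2163 against 2105 and 1939 in RBC (0.10, adjusted p = 0.125).

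Over the families, 29 members fell in both knockouts and 2 rose in both, and 4 (Srsf3, Srsf7, Hnrnpr and Prpf38b) changed in opposite directions, whereas 13.3%, 10.1% and 8.62% of all genes did so. A further 5 fell in Mettl14 KO and did not pass in Mettl3 KO (9.99% of all genes), 12 fell in Mettl3 KO and did not pass in Mettl14 KO (9.87%), 6 rose in Mettl14 KO and did not pass in Mettl3 KO (10.5%), 2 rose in Mettl3 KO and did not pass in Mettl14 KO (11.5%), and 7 passed in neither (26.2%). Passing in one knockout and not in the other is no test of a difference, and 4 of the 5, 11 of the 12, 4 of the 6 and 1 of the 2 passed that test, with Snrpd1, Snrpa1, Hnrnpd, Srsf9 and Srsf1 as the ones that did not. Tested directly, the change in Mettl3 KO was lower than that in Mettl14 KO for 23 members and higher for 8, beside 22.4% and 20.8% of all genes, with a median difference of -0.13. Library size scaling moved the median of all genes by 0.18 in this test and turned the counts to 9 lower and 16 higher (15.6% and 30.4% of all genes), with the members' median 0.14 below that of all genes. In the main fit, 5 of 11 Srsf genes, 5 of 11 Snrp, 4 of 9 Sf3, 8 of 20 Hnrnp and 1 of 13 Prpf were lower. Higher were 5 Prpf genes, 2 Hnrnp and 1 Sf3, and no U2af gene passed. Of the 39 members without shared sequence, 11 were lower and 6 higher. Each knockout was set against its own control line, and the part of the control lines in these differences cannot be told apart from that of the deleted gene.

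**Figure D2:**
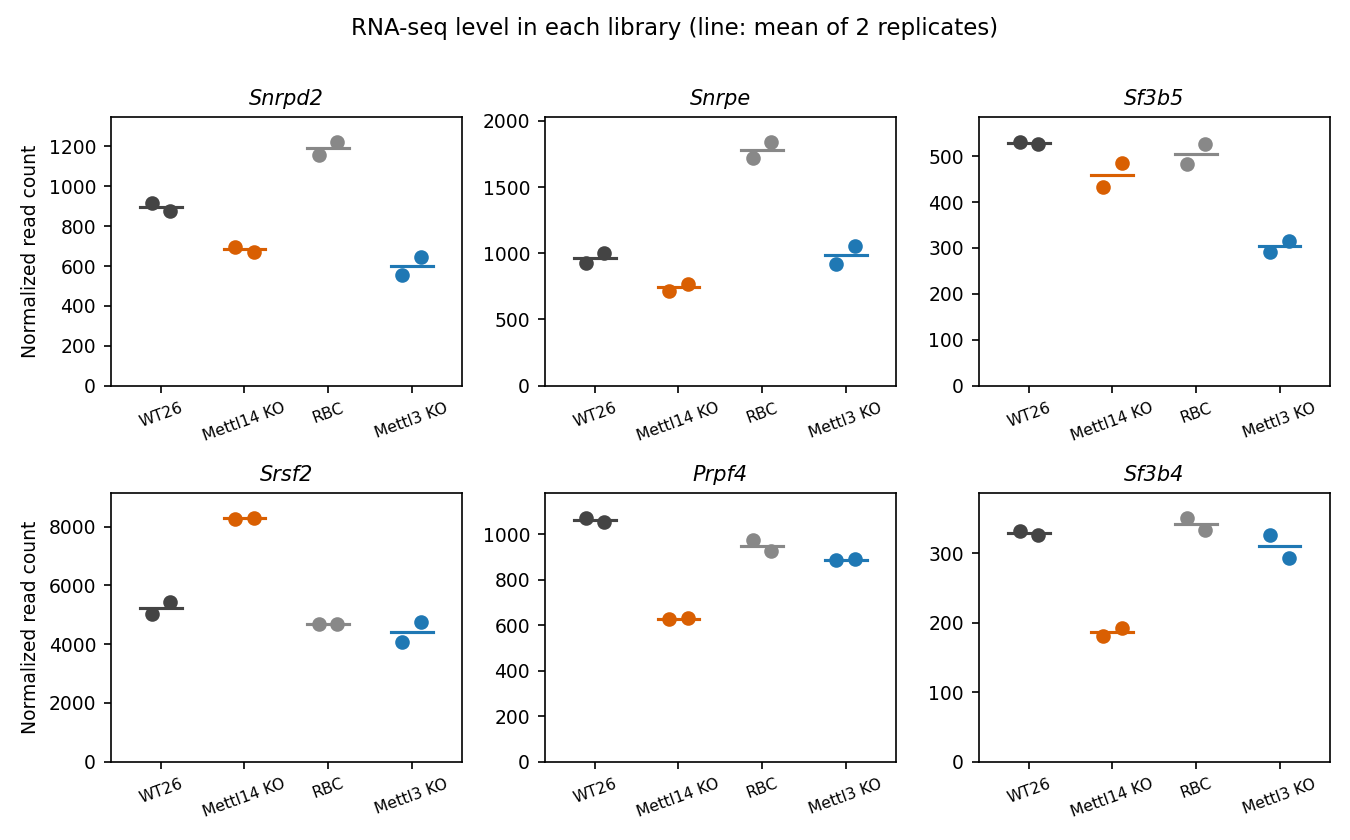
Normalized RNA-seq counts of Snrpd2, Snrpe, Sf3b5, Srsf2, Prpf4 and Sf3b4 in each of the 8 libraries, grouped by line, where each point is 1 library and each line the mean of 2. Snrpd2 and Snrpe are lowest against their control in Mettl3 KO, Srsf2 is high and Prpf4 and Sf3b4 are low in Mettl14 KO, and Snrpe is high in RBC.

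Some of the smaller changes rested on single libraries. The calls of Snrpd2 and Srsf7 in both knockouts, and of Sf3b4, Prpf4 and Srsf2 in Mettl14 KO, held under every alternative run, each library left out included. The fall of Sf3b5 in Mettl14 KO did not pass without Mettl14 KO replicate 1 (adjusted p = 0.35), WT26 replicate 1 (adjusted p = 0.134) or WT26 replicate 2 (adjusted p = 0.106), nor with DESeq2 (adjusted p = 0.209). Of the genes with opposite changes, Srsf3 lost its rise in Mettl14 KO when any one of the 4 libraries was left out (adjusted p = 0.0619 to 0.162) and its fall in Mettl3 KO without RBC replicate 2 (adjusted p = 0.0624). Hnrnpr lost its fall in Mettl14 KO without either Mettl14 KO library or WT26 replicate 1 (adjusted p = 0.0915 to 0.299). Prpf38b lost its rise in Mettl3 KO without either RBC library or Mettl3 KO replicate 2 (adjusted p = 0.119 to 0.136), and Srsf1 its rise without RBC replicate 1 (adjusted p = 0.156) or Mettl3 KO replicate 2 (adjusted p = 0.126). Hnrnpa0 lost its fall in Mettl3 KO without Mettl3 KO replicate 1 (-0.18, adjusted p = 0.123) or RBC replicate 1 (-0.24, adjusted p = 0.0578), and with library size scaling (-0.17, adjusted p = 0.108). Prpf31 lost its fall in Mettl14 KO without Mettl14 KO replicate 2 (adjusted p = 0.115) or WT26 replicate 2 (adjusted p = 0.107) and with DESeq2 (adjusted p = 0.0655), and its fall in Mettl3 KO with library size scaling (-0.07, adjusted p = 0.305). Hnrnpd lost its rise in Mettl14 KO without Mettl14 KO replicate 1 (adjusted p = 0.0548) or WT26 replicate 2 (adjusted p = 0.0909), and Hnrnpc its fall there without WT26 replicate 1 (adjusted p = 0.0565). The fall of Snrpd1 in Mettl14 KO did not pass without Mettl14 KO replicate 2 (-0.18, adjusted p = 0.181) or WT26 replicate 1 (adjusted p = 0.108). Hnrnpa3 lost its rise in Mettl14 KO without WT26 replicate 2 (adjusted p = 0.0719), and its rise in Mettl3 KO without RBC replicate 2 (0.07, adjusted p = 0.391) and with DESeq2 (adjusted p = 0.0818). The fall of Snrpa did not pass in Mettl14 KO without Mettl14 KO replicate 2 or WT26 replicate 1 (adjusted p = 0.179 and 0.159), or in Mettl3 KO without Mettl3 KO replicate 2 or RBC replicate 1 (adjusted p = 0.121 and 0.0546). With DESeq2 Snrpa passed in neither knockout (adjusted p = 0.132 and 0.0733), Hnrnpr not in Mettl14 KO (adjusted p = 0.0985) and Prpf38b not in Mettl3 KO (adjusted p = 0.109). With library size scaling Srsf3 passed in neither (adjusted p = 0.0856 and 0.387), and Snrpa not in Mettl3 KO (adjusted p = 0.456).

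The control lines themselves differed in these genes. In RBC 30 members were higher than in WT26 and 4 were lower, beside 19.7% and 19.2% of all genes, with a median log2 difference of 0.12. Here too the result depended on the scaling, since library size scaling, which moved the median of all genes by -0.15, gave 9 higher and 16 lower (12.7% and 32.3% of all genes), with the members' median 0.13 above that of all genes. The DESeq2 test gave 22 higher and 2 lower, beside 12.1% and 10.7% of all genes. Of the 39 members without shared sequence, 15 were higher and 3 lower in the main fit. Of the Sm ring genes 6 of 7 were higher in RBC, with a median of 0.41, and none was lower. Sf3b1 was higher by 0.45 (adjusted p = 1.6e-06), Hnrnpu, which binds nuclear scaffold and chromatin-associated RNA, by 0.68 (adjusted p = 2.5e-08), and Prpf8 by 0.22 (adjusted p = 0.00241), which was 0.07 with library size scaling (adjusted p = 0.302). Srsf12 was the one member past a log2 difference of 1 (1.05, SE 0.38, adjusted p = 0.0346), at the low counts given above, where 8.98% of all genes passed. That call was lost without RBC replicate 1 (0.88, adjusted p = 0.173), RBC replicate 2 (adjusted p = 0.0541) or WT26 replicate 2 (0.75, adjusted p = 0.213), with DESeq2 (adjusted p = 0.22) and with library size scaling (adjusted p = 0.0589). Without RBC replicate 1 the counts were 23 higher and 2 lower with a median of 0.08, and without RBC replicate 2 they were 24 and 1.

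The MeRIP-seq input libraries gave a second measure of RNA level, from other libraries of the same lines. No member passed in either comparison by the edgeR fit over all MeRIP-seq libraries or by DESeq2, and by the former 0.398% and 0.76% of all features did. At an unadjusted p under 0.05 in that fit, 1 member differed in Mettl14 KO (Sf3b4, -0.77) and 5 in Mettl3 KO (Srsf4, Srsf5, Srsf10 and Srsf11 lower, Prpf40b higher), beside 10.6% and 11.7% of all features. With only the libraries compared in the fit, 3 members fell and none rose in Mettl14 KO (3.7% and 1.83% of all features), and 16 fell and 1 rose in Mettl3 KO (7.46% and 4.03%). The median log2 fold change of the members was -0.12 and -0.32 in the inputs, and over the 67 members the input and RNA-seq values had a Pearson correlation of 0.78 (Mettl14 KO) and 0.68 (Mettl3 KO), a description over genes that share libraries. Of the members that passed in RNA-seq, 45 of 46 and 46 of 49 had the same sign in the inputs, as had 92.8% and 92.6% of all genes that passed. Snrpd2 had 466 and 494 normalized input counts in WT26 and 551 and 464 in RBC, with 353 and 446 in Mettl14 KO and with 334 and 344 in Mettl3 KO.

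**Figure D3:**
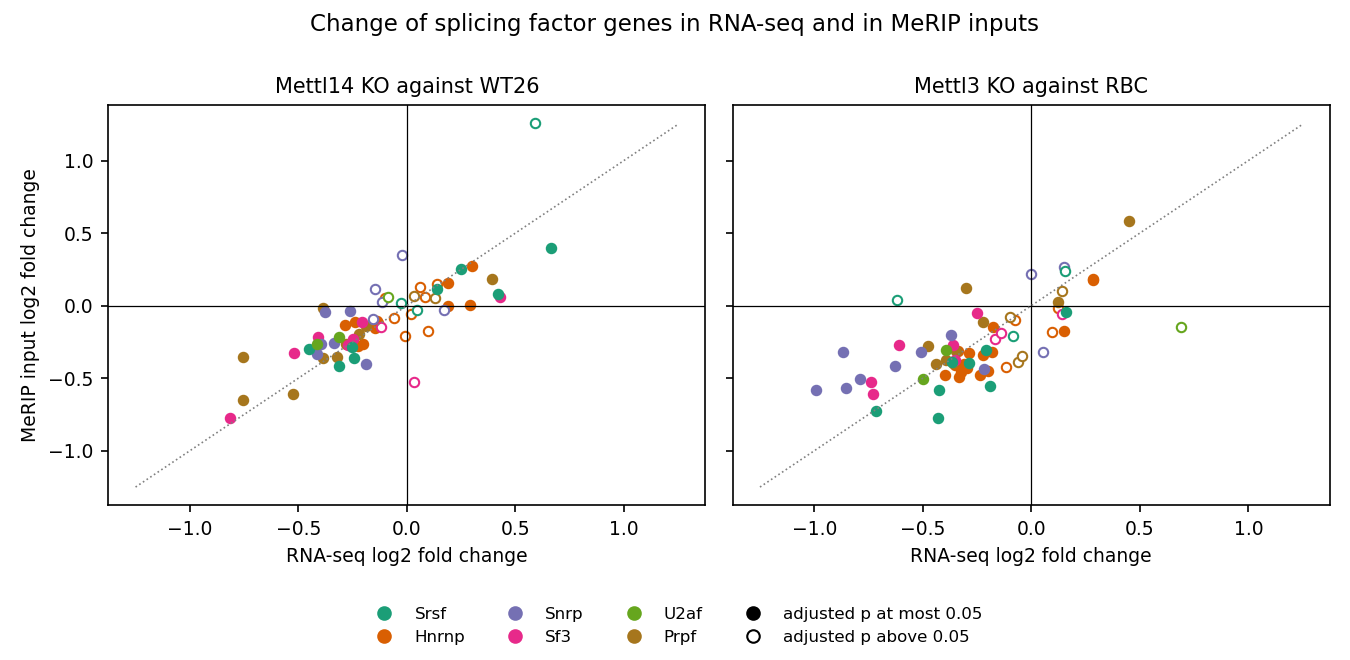
Log2 fold change in RNA-seq (x axis) against that in the MeRIP-seq inputs (y axis) for the 67 members, in Mettl14 KO against WT26 and in Mettl3 KO against RBC. Most points lie in the lower left part, and the input values scatter around the RNA-seq values with a Pearson correlation of 0.78 and 0.68.

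IP over input measures, per gene, how much of its RNA the m6A antibody pulled down relative to the average gene, as a log2 ratio of normalized counts. In WT26, 5 of 67 members were enriched at an adjusted p of 0.05 and a log2 ratio above 1 (Sf3b5, Snrpd2, Hnrnpa0, Hnrnpf and Prpf4) and 3 were below input by the same limit (Prpf8, Srsf3 and Sf3b3), beside 14.5% and 13.5% of all features. RBC had the same 5 and Prpf4b enriched, 6 in all, and the same 3 below, beside 13.4% and 11.1%. In Mettl14 KO Prpf31 was added to these 6, which gave 7 enriched, with the same 3 below, beside 11.9% and 9.91%. In Mettl3 KO 4 were enriched (Snrpd2, Sf3b5, Prpf4b and Snrpd3) and none was below, beside 2.54% and 1.86%. By adjusted p alone, 8 members were above and 10 below input in WT26, beside 16.9% and 16.1% of all features. The members' counts were 9 and 7 in RBC (all features 15.5% and 13.1%), 8 and 7 in Mettl14 KO (13.5% and 12.0%) and 4 and 0 in Mettl3 KO (2.78% and 2.22%). With library size scaling, which moved the median of all features by 0.38 to 0.47, these splits became 14 and 2 (all features 29.2% and 7.57%), 14 and 1 (29.5% and 5.0%), 14 and 1 (25.9% and 4.43%), and 12 and 0 (12.2% and 1.21%). With only the libraries of the line in the fit they were 7 and 6, 6 and 3, 6 and 3, and 10 and 1, the last beside 9.46% and 6.36% of all features, and DESeq2 gave 8 and 1 in Mettl3 KO. The members' median ratio was -0.29 in WT26, -0.24 in Mettl14 KO, -0.22 in RBC and 0.14 in Mettl3 KO, with medians over all features of -0.01 to 0.02, and the first 3 turned positive under library size scaling while staying 0.31, 0.27 and 0.27 below the median of all features. Of the 39 members without shared sequence, 3 were enriched in WT26, 4 in RBC, 4 in Mettl14 KO and 3 in Mettl3 KO. Below input by the fold limit were 2, 2, 2 and 0 of them.

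The replicates of a line differed in the spread of the ratios. In WT26 the median over 66 members with at least 10 reads in every library was -0.06 in replicate 1 and -0.63 in replicate 2, with an SD over genes of 0.58 and 0.94, and over all features the SD was 1.08 and 1.61. Mettl14 KO and RBC had the same pattern, with replicate 2 below replicate 1 for 52 members in each and for 53 in WT26. In Mettl3 KO the medians were 0.12 and 0.18 and replicate 2 was lower for 28 members. Leaving out IP replicate 2 took the number of enriched members to 1 in WT26, 0 in Mettl14 KO, 1 in RBC and 1 in Mettl3 KO and the number below to 0 in all, and leaving out IP replicate 1 gave 16, 10 and 13 below in WT26, Mettl14 KO and RBC, and 7 enriched in Mettl3 KO. Leaving out either input library also lowered the enriched counts, to 3 and 3 in WT26, 3 and 0 in RBC, and 1 and 1 in both knockouts. With input and IP of the same number as a block, 4 were enriched in WT26, 6 in Mettl14 KO, 5 in RBC and 3 in Mettl3 KO, and Prpf4 was no longer among them in the first 3 lines.

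**Figure D4:**
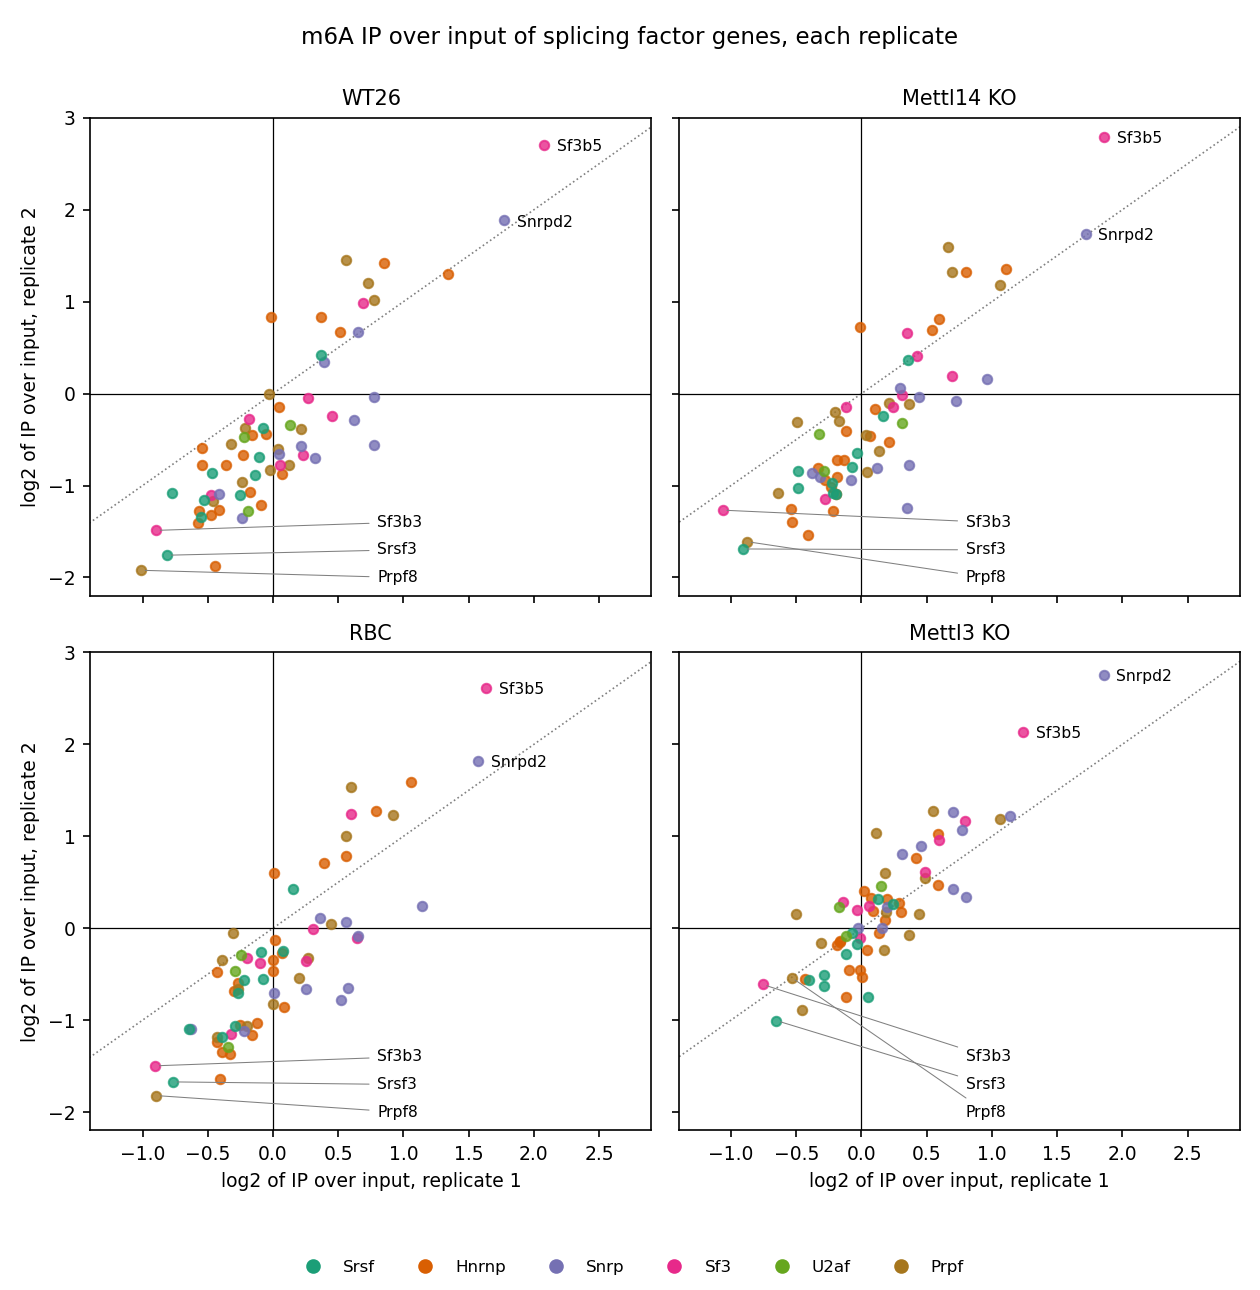
Log2 IP over input of the splicing factor genes in replicate 1 (x axis) and replicate 2 (y axis), one panel for each of the 4 lines, for the 66 members with at least 10 reads in every library, with a dotted line where both are equal. Sf3b5 and Snrpd2 stand at the upper right in all panels and Prpf8, Srsf3 and Sf3b3 at the lower left of the WT26, Mettl14 KO and RBC panels, and most points lie below the dotted line except in Mettl3 KO.

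Sf3b5 had the highest ratio of the members in WT26, Mettl14 KO and RBC. Its normalized counts in WT26 were 168 and 197 in the inputs and 709.9 and 1287 in the IPs, and the log2 ratios by replicate were 2.08 and 2.71 in WT26 and 1.64 and 2.62 in RBC, with 1.86 and 2.79 in Mettl14 KO and with 1.24 and 2.14 in Mettl3 KO. In the same order of lines, the fitted ratios were 2.45 (SE 0.40, adjusted p = 0.00441), 2.13 (SE 0.39, adjusted p = 0.00738), 2.43 (SE 0.40, adjusted p = 0.00568) and 1.73 (SE 0.40, adjusted p = 0.0293). Snrpd2 was enriched in Mettl3 KO too, where one replicate lay within the range of WT26 and the other above all lines, with log2 ratios by replicate of 1.77 and 1.88 in WT26 and 1.57 and 1.82 in RBC, with 1.72 and 1.73 in Mettl14 KO and with 1.86 and 2.76 in Mettl3 KO. Fitted ratios, again in that order, were 1.83 (adjusted p = 0.00358), 1.69 (adjusted p = 0.00617), 1.73 (adjusted p = 0.00565) and 2.38 (adjusted p = 0.00233). Hnrnpa0, an intronless hnRNP gene with 4 GGACT matches in 2678 bases, had ratios of 1.35 and 1.299 in WT26 and 1.06 and 1.59 in RBC, with 1.11 and 1.35 in Mettl14 KO and with 0.58 and 0.47 in Mettl3 KO, where both replicates lay below those of the other lines. Hnrnpf had fitted ratios of 1.17 in WT26, 1.06 in RBC, 1.13 in Mettl14 KO and 0.61 in Mettl3 KO, and Prpf4 had 1.05, 1.12, 1.20 and 0.63, with the last value not passing in either gene (adjusted p = 0.295 and 0.293). Prpf4b was close to 1 in all lines, at 0.90, 1.09, 1.12 and 1.13, and Snrpd3 passed the limit in Mettl3 KO alone, at 1.01 (adjusted p = 0.0408), and at 0.98 with the block of input and IP.

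The 3 members below input are abundant. Prpf8 had 11183 and 11812 normalized input counts and 5544 and 3118 IP counts in WT26, and its log2 ratios by replicate were -1.01 and -1.92 in WT26 and -0.90 and -1.82 in RBC, with -0.88 and -1.61 in Mettl14 KO and with -0.54 and -0.54 in Mettl3 KO. Srsf3 had -0.81 and -1.76, -0.77 and -1.67, -0.91 and -1.69, and -0.65 and -1.005 in the same order. Sf3b3 had -0.90 and -1.49, -0.90 and -1.50, -1.06 and -1.27, and -0.76 and -0.61. All 3 were thus below input in both replicates of all 4 lines, nearest to 0 in Mettl3 KO when the replicates are averaged. Among the hnRNP and the Snrp genes, Hnrnpd and Snrpa had the lowest mean of the fitted ratios in WT26 and RBC. Hnrnpd had -0.45 and -1.87 in WT26 and -0.12 and -0.75 in Mettl3 KO, and Snrpa had -0.42 and -1.09 in WT26 and -0.02 and 0.00 in Mettl3 KO. Over 66 members the mean ratio of WT26 and RBC had a Pearson correlation of 0.15 with GGACT per kb, -0.32 with exon length and -0.36 with the number of exons, a description over genes measured in the same libraries.

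No member changed its IP over input between a knockout and its control by edgeR or DESeq2 at an adjusted p of 0.05. By edgeR 0.0% of all features did so either. Size factors set each library to its typical feature, so a loss of m6A shared by most genes would not show in these tests. At an unadjusted p under 0.05 there were 0 members in Mettl14 KO and 2 in Mettl3 KO by edgeR, Hnrnpa0 and Prpf6, beside 0.557% and 3.48% of all features. The change of Hnrnpa0 was -0.80 (SE 0.36, adjusted p = 0.854). Ratios spread less in Mettl3 KO than in RBC, as given above, and the part of this in the members' change was not tested. The members' median change in IP over input was 0.05 for Mettl14 KO and 0.39 for Mettl3 KO, beside 0.02 and 0.01 over all features. These medians moved with single IP libraries, to -0.16 without WT26 IP replicate 2 and 0.32 without WT26 IP replicate 1 in the former, and to 0.18 without RBC IP replicate 2 and 0.68 without RBC IP replicate 1 in the latter. For Snrpd2 the change was -0.10 (SE 0.39) and 0.69 (SE 0.39), and for Sf3b5 -0.03 (SE 0.54) and -0.40 (SE 0.54). Differences of the size of these errors were not detectable with 2 libraries a group. In RBC against WT26, too, 0 members passed by edgeR and by DESeq2, and 0 had an unadjusted p under 0.05 by edgeR, as 0.588% of all features had.

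Genes that work with these families were counted from lists chosen beside the members. Of all tested genes, 27.0% fell and 25.5% rose in Mettl14 KO, and 28.1% fell and 25.2% rose in Mettl3 KO. Of 54 other spliceosome genes, 23 fell and 10 rose in Mettl14 KO and 29 fell and 7 rose in Mettl3 KO, with medians of -0.17 and -0.20. The largest changes were in Dhx16, a spliceosomal helicase (-0.87), and Syf2 (-0.84) in Mettl14 KO, and in Lsm4 (-1.05) and Lsm8 (-0.87), parts of the ring on U6 RNA, in Mettl3 KO. Of 40 other splicing regulators, 17 fell and 8 rose in Mettl14 KO and 12 fell and 11 rose in Mettl3 KO. The shares in Mettl3 KO, 30.0% and 27.5%, were near those of all genes. Esrp1, an epithelial splicing regulator, rose by 1.26 in Mettl14 KO and fell by 0.98 in Mettl3 KO, Mbnl3 rose by 1.19 in Mettl14 KO and Nova2 by 0.93 in Mettl3 KO. Of 15 genes of snRNP assembly, which includes loading of the Sm ring by the SMN complex, 7 fell and none rose in Mettl14 KO, led by Coil (-0.99) and Gemin7 (-0.77), and 7 fell and 3 rose in Mettl3 KO, with Phax (0.91) and Snupn (-0.44) as the largest. Of 7 tested genes for SR protein kinases and their importer, 3 fell and 1 rose in Mettl14 KO and 4 fell and 2 rose in Mettl3 KO. Srpk2 rose in both, by 0.45 and 0.56, Clk2 fell by 0.31 in Mettl14 KO and Clk1 by 0.52 in Mettl3 KO.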

How the data were processed

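The authors deposited raw counts per gene, for 8 RNA-seq libraries in one table and for 16 MeRIP-seq libraries (genes and repeat subfamilies) in another. Per the labels, reads were trimmed with cutadapt 1.8.1 and mapped to GRCm38 with STAR 2.6.0c, and DESeq2 1.26.0 was used for RNA-seq. Up to 100 mapping positions were kept for MeRIP-seq, counted with TEtranscripts, so reads shared with pseudogenes could be split. The RNA-seq counting tool and its strand setting are not given in the sources used here. Each MeRIP replicate combined 3 reactions.

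Counts were fitted here with edgeR 4.0.16 (quasi-likelihood test, R 4.3.3, limma 3.58.1), DESeq2 1.42.0 size factors and the filter of edgeR on low counts, in one fit per table, with Benjamini-Hochberg adjustment over 17021 genes or 22621 features. Rose and fell mean an adjusted p of 0.05 or less, and the fold limit is an absolute log2 fold change above 1. Normalized counts are counts divided by size factors. Deviations of same-numbered inputs and IPs from the group means correlated at 0.214 to 0.302 in the 4 lines. Those of same-numbered inputs correlated at 0.454 between WT26 and Mettl14 KO and at 0.365 between RBC and Mettl3 KO. Replicate numbers were thus not shown to mark pairs of input and IP. Whether the number marks a difference shared between lines was not tested. The main fit used no block, and input and IP of the same number were a block in an alternative. Scripts were tested on simulated data. Gene structure came from GENCODE vM21, and pseudogenes from BLAST 2.17.0. Alternatives were another test (DESeq2), other scaling, filters, replicate blocks and leaving out each library.

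The members and lists were chosen with earlier results of these data known, and the grouping by role was added later. Members named with values in each library were, by rule, those past the fold limit, the largest riser and faller per family and knockout, opposite changes, enriched members and the IP extremes per family. Beside that rule, 12 members were named after their values were seen (Hnrnpa3, Hnrnpu, Prpf3, Prpf6, Sf3a3, Sf3b1, Snrpa1, Snrpb, Snrpc, Snrpd1, Snrpe and Snrpf). Snrpb2 was then added to complete the U1 and U2 genes.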

Additional observations from a re-analysis of the deposited data

Results flagged for a closer look

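Over all 67 members, the test of the difference gave 23 lower and 8 higher in Mettl3 KO, beside 22.4% and 20.8% of all genes. Named members were picked partly by their values, so a count among them is no share of the members. For 20 of the named members the change in Mettl3 KO against RBC differed from that in Mettl14 KO against WT26, by edgeR's test of the difference itself with adjustment over all genes. The difference, as the log2 fold change in Mettl3 KO minus that in Mettl14 KO, was negative in 14. It was -0.76 for Snrpf, -0.75 for Srsf2, -0.61 for Srsf7, -0.60 for Snrpd2, -0.54 for Sf3b5, -0.47 for Snrpe, -0.47 for Snrpc, -0.45 for Snrpg, -0.44 for Prpf39, -0.41 for Hnrnpa0, -0.35 for Srsf3, -0.32 for Sf3b1, -0.29 for Sf3a1 and -0.26 for Srsf5. It was positive in 6, at 0.32 for Prpf40b, 0.42 for Hnrnpr, 0.46 for Prpf3, 0.51 for Prpf38b, 0.66 for Prpf4 and 0.67 for Sf3b4. Of these, Hnrnpa0, Prpf40b and Sf3a1 did not pass with DESeq2 (adjusted p = 0.0531, 0.0612 and 0.0538). With library size scaling Hnrnpa0 (-0.23), Sf3a1 (-0.11), Srsf3 (-0.17), Srsf5 (-0.09), Sf3b1 (-0.14) and Snrpc (-0.30) did not pass (adjusted p = 0.0759 to 0.343). Leaving out Mettl14 KO replicate 2, Mettl3 KO replicate 1, RBC replicate 1 or WT26 replicate 1 took the call from Hnrnpa0 (-0.38, -0.27, -0.33 and -0.31), and without Mettl14 KO replicate 2, RBC replicate 1 or WT26 replicate 1 Sf3a1 did not pass (-0.27, -0.17 and -0.24). Prpf40b did not pass without WT26 replicate 2 (0.26, adjusted p = 0.0536). The knockouts stem from different parent lines, and the part of the parent lines in these differences cannot be told apart from that of the deleted gene.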

How the results depend on the processing

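In RNA-seq, the counts of members that fell in each knockout stayed within 1.5 times of the reported ones under all alternatives run. Library size scaling gave 13 members risen in Mettl3 KO (35.6% of all genes), and 16 higher and 9 lower in the difference between knockouts (30.4% and 15.6%). It gave 9 higher and 16 lower in RBC against WT26 (12.7% and 32.3%), where Hnrnpr turned from 0.13 to -0.0217 and Hnrnpa3 from 0.14 to -0.0072. DESeq2 gave 2 members lower in RBC, beside 10.7% of all genes. Leaving out 1 library gave 1 to 3 members lower in RBC. In IP over input, library size scaling gave 12 enriched members in WT26, 11 in RBC and 11 in Mettl3 KO, and 0 below input in WT26, Mettl14 KO and RBC. Under that scaling, by adjusted p alone, 29.2%, 29.5% and 12.2% of all features lay above input in WT26, RBC and Mettl3 KO. Leaving out 1 library gave 1 to 7 enriched and 0 to 16 below in WT26, 0 to 7 and 0 to 10 in Mettl14 KO, 0 to 7 and 0 to 13 in RBC, and 1 to 7 enriched in Mettl3 KO. When only the libraries compared entered the fit, 3 members fell in the Mettl14 KO inputs (3.7% of all features), and 1 rose and 16 fell in the Mettl3 KO inputs (4.03% and 7.46%). The cause of these moves was not tested.

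Same-numbered deviations of the RNA-seq libraries correlated at -0.071 in WT26 and Mettl14 KO, where replicate numbers were thus not shown to pair libraries. In RBC and Mettl3 KO they correlated at 0.453, and what replicates of the same number share there was not tested. With the replicate block, 10 members rose and 36 fell in Mettl14 KO (25.7% and 27.2% of all genes), and 6 rose and 43 fell in Mettl3 KO (25.5% and 28.3%). In RBC 32 were higher and 6 lower (20.1% and 19.5%). In the inputs this block passed 0 members. Of all features, 0.637% rose and 1.03% fell in Mettl14 KO, against 0.124% and 0.274% without it. In Mettl3 KO 0.588% rose and 1.37% fell, against 0.181% and 0.579%. With the block of input and IP pairs, enriched members numbered 4 in WT26, 6 in Mettl14 KO, 5 in RBC and 3 in Mettl3 KO, and Snrpd3 in Mettl3 KO had a log2 ratio of 0.98. With 2 libraries a group, small changes of low-count members such as Srsf12 and U2af1l4 could not be resolved.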
